A study of Mus musculus with 10 samples.

Results

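Cholesterol and fatty acid synthesis was followed here as a module of 31 genes among the 55573 gene IDs of the deposited count table, taken by gene symbol from a set written down for this work: 8 enzymes of the mevalonate arm, 11 enzymes of the sterol arm, 6 regulators and sterol transfer genes around the SREBP factors, and 6 enzymes of the fatty acid arm. All 31 members were in the table, and all 31 passed the filter on low counts, so none was lost. RNA came from cells of the cortex of mouse pups on postnatal day 3, sorted for EYFP and labelled cortical projection neurons. The Cdk7_KO group (n = 5) carried NexCre/+, Cdk7lox/lox and R26EYFP/+. The Ctrl group (n = 5) carried NexCre/+, Cdk7+/+ and R26EYFP/+, so the driver and the reporter were present in both genotypes. Each library came from 1 mouse. NexCre is a Cre recombinase placed in the Neurod6 (Nex) locus, which is active in young excitatory neurons of the forebrain; cells in which it is not active keep both Cdk7 alleles. The series asks how RNA levels in these neurons differ when Cdk7, a kinase of the general transcription factor TFIIH, is deleted.

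Cells build cholesterol from acetyl-CoA through the mevalonate arm, which makes isoprenoid units, and the sterol arm, which joins and cyclises them and then trims lanosterol to cholesterol. When sterol in the endoplasmic reticulum is low, SCAP carries the SREBP precursors to the Golgi, where they are cut to active transcription factors; INSIG proteins hold them back when sterol is high. SREBP2, from Srebf2, is best known for driving sterol synthesis, and SREBP1, from Srebf1, for driving fatty acid synthesis and desaturation. Lipoprotein cholesterol does not cross the blood-brain barrier, so the brain makes its own, in neurons before and around birth and increasingly in astrocytes and oligodendrocytes afterwards.

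Promoter sequences of 3 members are shown because they set the 2 SREBP genes beside Hmgcs1, the enzyme gene with the highest level of the mevalonate and sterol arms. They are RefSeq starts on GRCm38.p6, each 250 bases before to 50 after a listed start, printed 5′ to 3′ on the gene's strand. Capitals mark exact matches, read directly or as the reverse complement, to the sterol response element core TCACCCCA, to the box named CCAAT after its letters and to the GC box GGGCGG. Each motif was counted on its own, whether or not its matches overlap those of another. The Srebf1 window is chr11:60210422-60210721 (minus strand), 1 of 3 listed starts of that gene, the Srebf2 window is chr15:82147019-82147318 (plus strand) and the Hmgcs1 window is chr13:119690101-119690400 (plus strand).
Srebf1: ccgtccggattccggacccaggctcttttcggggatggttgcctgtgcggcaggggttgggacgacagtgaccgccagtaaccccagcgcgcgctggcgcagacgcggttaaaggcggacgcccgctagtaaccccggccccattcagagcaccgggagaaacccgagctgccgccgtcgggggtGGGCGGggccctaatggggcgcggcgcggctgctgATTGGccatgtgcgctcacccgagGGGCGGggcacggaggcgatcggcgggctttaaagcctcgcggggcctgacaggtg
Srebf2: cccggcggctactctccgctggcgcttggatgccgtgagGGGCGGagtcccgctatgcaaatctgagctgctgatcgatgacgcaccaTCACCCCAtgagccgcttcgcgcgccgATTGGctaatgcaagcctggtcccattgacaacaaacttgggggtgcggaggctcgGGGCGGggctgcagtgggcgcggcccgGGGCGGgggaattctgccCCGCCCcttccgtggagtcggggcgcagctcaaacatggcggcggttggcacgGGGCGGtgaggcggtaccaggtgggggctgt
Hmgcs1: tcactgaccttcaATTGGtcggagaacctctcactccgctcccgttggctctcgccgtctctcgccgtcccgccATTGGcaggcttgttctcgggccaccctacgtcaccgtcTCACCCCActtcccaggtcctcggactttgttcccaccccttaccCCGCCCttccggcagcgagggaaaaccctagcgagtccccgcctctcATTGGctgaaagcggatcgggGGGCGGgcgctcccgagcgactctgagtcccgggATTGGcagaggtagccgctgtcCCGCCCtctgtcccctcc
The sterol response element core stood in 2 of the 33 RefSeq promoters found for 25 members (6.06%), those of Srebf2 and Hmgcs1, and in 1.56% of all 32851 promoters in the table. CCAAT was found in 66.7% of the member promoters and in 37.4% of all promoters. The GC box was found in 72.7% of the member promoters and in 35.7% of all. The E box CACGTG was found in 18.2% of the member promoters and in 7.15% of all. These matches describe the letters in the windows; binding was not measured. Fdps, Fdft1, Sqle, Stard4, Scd1 and Scd2 are named without a promoter.

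Total counts lay between 23497621 and 31233466 per library, and levels are given as CPM, counts scaled to the library total. Cdk7 RNA averaged 5.16 ± 1.30 CPM in Cdk7_KO and 15.7 ± 4.00 CPM in Ctrl (SD, n = 5 each), with no overlap between the groups, a log2 fold change of -1.54, an adjusted p of 0.161 in edgeR's quasi-likelihood test, the main test here, and a DESeq2 adjusted p of 2.26e-08; the two-sided exact permutation p of 0.00794 is the lowest value open to 252 ways of dividing the libraries. Xist and Ddx3y marked Cdk7_KO replicates 1, 2 and 3 and Ctrl replicates 1 and 3 as male and the other 5 libraries as female; all male libraries have lower replicate numbers than the female ones of their genotype, so sex cannot be told apart from whatever else those numbers mark. The 9 projection neuron markers summed to 1866 to 2491 CPM in Cdk7_KO and 1581 to 2348 CPM in Ctrl, and markers of radial glia, oligodendrocytes, microglia, endothelium, interneurons and blood were also present, with none at 0 in any library. The 12 radial glia and astrocyte markers summed to 341 to 1206 CPM in Cdk7_KO and 1090 to 2010 CPM in Ctrl.

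In edgeR's test with genotype alone, none of the 19 enzymes of cholesterol synthesis had an unadjusted p under 0.05, while 4 other members did and had lower values in Cdk7_KO: Srebf1, the gene for SREBP1; Stard4, a sterol transfer protein; and the stearoyl-CoA desaturases Scd1 and Scd2. After Benjamini-Hochberg adjustment over the 15578 genes tested, edgeR called 0 genes (0%) at an adjusted p under 0.05, members included. At an unadjusted p under 0.05, edgeR placed 4 of 31 members lower in Cdk7_KO (12.9%) and 0 higher, against 10.5% of all tested genes lower and 4.90% higher, so the members' share was near the background. DESeq2 called 3 members lower (9.68%), Srebf1, Stard4 and Scd1, and 0 higher, against 3.30% of 16263 genes lower and 0.258% higher. The CPM values of the genotypes did not overlap for 3 members, Srebf1, Stard4 and Scd2, all lower in Cdk7_KO, against 3.02% of all genes in either direction (2.41% lower and 0.610% higher). Over the 31 members, 13 log2 fold changes were positive and 18 negative, with a median of -0.0039, beside a median of 0.01 and 47.5% negative over all tested genes.

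**Figure D1:**
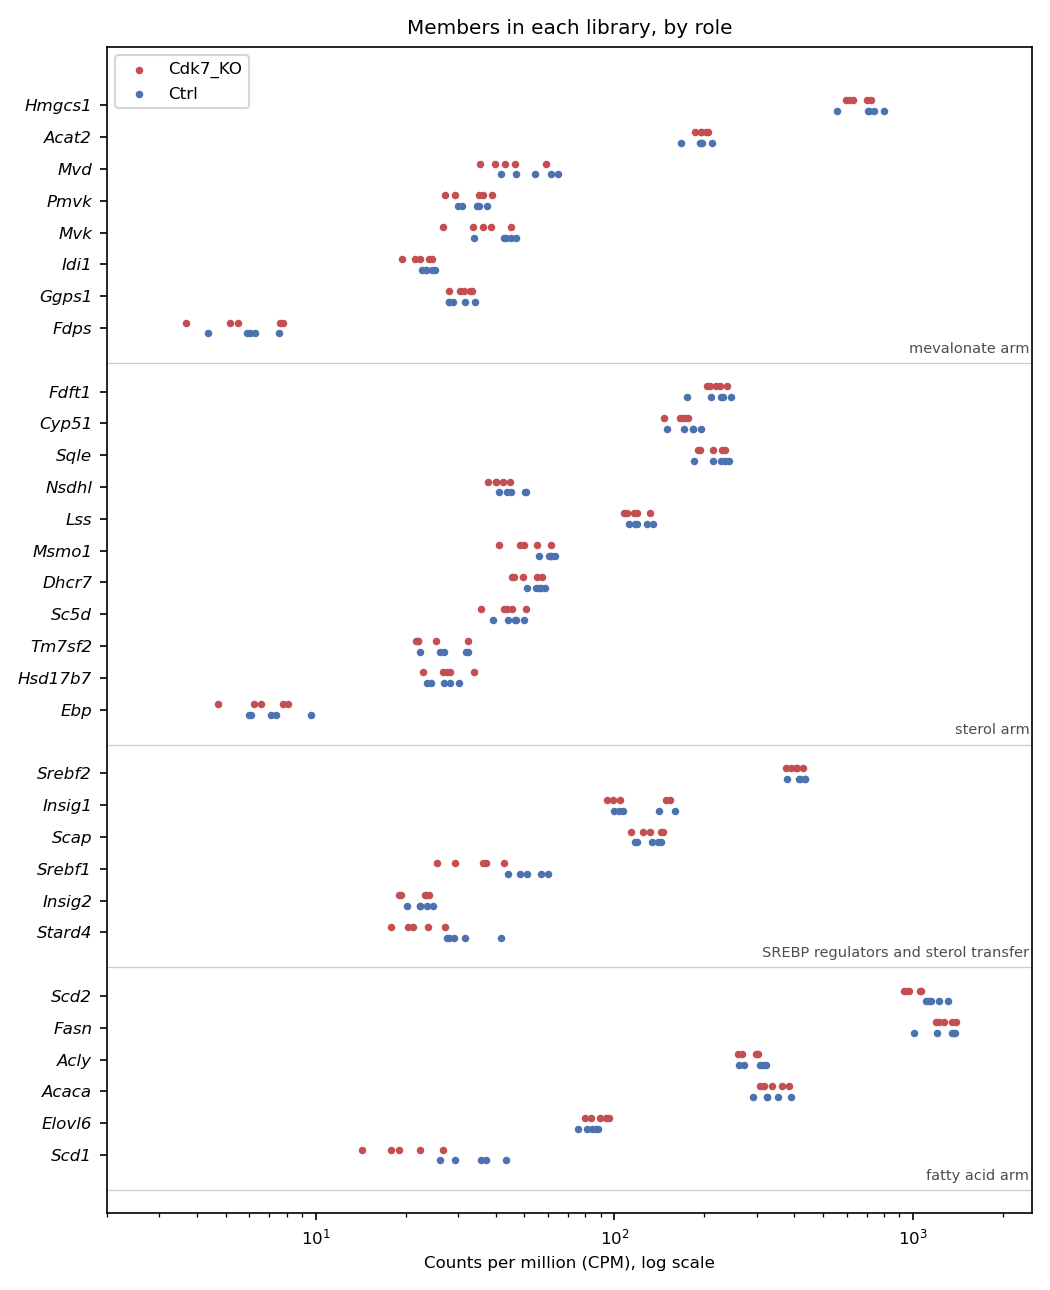
CPM (log scale) of the 31 members in each of the 5 Cdk7_KO libraries (upper point row) and 5 Ctrl libraries (lower point row), grouped by role and ordered within a role by level per exon length. The points of the genotypes overlap for 28 members and separate for Srebf1, Stard4 and Scd2.

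The mevalonate arm opens with Acat2, the cytosolic thiolase that joins acetyl-CoA units, and Hmgcs1, the synthase that makes HMG-CoA. Hmgcs1 (ENSMUSG00000093930; chromosome 13, 119690379 to 119708260, plus strand) had the highest Ctrl level of the arm, 153 CPM per kb of exon. It was at 611, 598, 725, 631 and 701 CPM in Cdk7_KO replicates 1 to 5, and at 796, 705, 558, 713 and 738 CPM in Ctrl replicates 1, 3, 4, 5 and 6. Each Cdk7_KO value lay within the Ctrl range, and the lowest and the highest library were both Ctrl. Its log2 fold change came to -0.05 (SE 0.10, 95% interval -0.26 to 0.15), with an edgeR adjusted p of 0.838. Acat2 averaged 197 ± 7.75 CPM in Cdk7_KO and 193 ± 16.3 CPM in Ctrl, a log2 fold change of 0.08 (SE 0.07, 95% interval -0.08 to 0.24).

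Mevalonate is phosphorylated by Mvk and Pmvk and decarboxylated by Mvd to the first isoprenoid unit. Mvd had the lowest log2 fold change of the arm, -0.22 (SE 0.15, 95% interval -0.55 to 0.11), and averaged 44.7 ± 8.90 CPM in Cdk7_KO and 53.8 ± 9.63 CPM in Ctrl. Mvk lay at -0.19 (SE 0.13, 95% interval -0.46 to 0.09). Their edgeR adjusted p was 0.516 for Mvd and 0.518 for Mvk, and Pmvk was at 0.04. Idi1, the isomerase of the isoprenoid unit, was at -0.04, and Ggps1, which makes the geranylgeranyl chain for protein prenylation, at 0.10. Fdps, which makes farnesyl diphosphate, was counted at only 5.95 ± 1.74 CPM in Cdk7_KO and 6.01 ± 1.13 CPM in Ctrl, and its interval was the widest of the module, -0.46 to 0.52. Its transcript has 5 near-identical copies (at least 95% identity over at least 200 bases) that together hold 122 counts beside 1559 for Fdps, so its level is uncertain. The arm's 8 log2 fold changes split into 4 positive and 4 negative (median -0.0028), and its summed level was 957 to 1138 CPM in Cdk7_KO and 895 to 1214 CPM in Ctrl.

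The sterol arm starts with squalene synthase, Fdft1, which had its highest level per length, 51.6 CPM per kb in Ctrl (chromosome 14, 63145150 to 63179578, minus strand; ENSMUSG00000021273). It was at 209, 205, 219.7, 225 and 238 CPM in Cdk7_KO replicates 1 to 5, and at 246, 231, 174, 211 and 227 CPM in Ctrl replicates 1, 3, 4, 5 and 6. The Cdk7_KO values again fell inside the Ctrl range, with a log2 fold change of 0.06 (SE 0.10, 95% interval -0.15 to 0.27), edgeR adjusted p = 0.818. Part of the Fdft1 exons (774 bases of 1 transcript) is identical to sequence annotated to the neighbouring gene Ctsb, and reads there may be shared. Stretches of Acat2 and Ggps1 match Tcp1 (445 bases at 98.7% identity) and Arid4b (257 bases, identical). Some such stretch was found for 10 of the 31 members. The search covered both strands without recording which one matched, so whether strand would separate these reads was not tested. Squalene epoxidase, Sqle, the second control point of the pathway, averaged 213 ± 20.2 CPM in Cdk7_KO and 221 ± 22.4 CPM in Ctrl, with a log2 fold change of -0.0026 (SE 0.09, 95% interval -0.20 to 0.20). Lss, which closes the rings to lanosterol, was at -0.02 (SE 0.08, 95% interval -0.18 to 0.15), and Cyp51, the lanosterol demethylase, at -0.04 (SE 0.09, 95% interval -0.23 to 0.15).

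Among the enzymes that trim lanosterol to cholesterol, Msmo1, which begins removal of the methyl groups beside the hydroxyl carbon, came closest to the threshold. Msmo1 averaged 51.2 ± 7.63 CPM in Cdk7_KO and 60.5 ± 2.76 CPM in Ctrl, a log2 fold change of -0.19 (SE 0.09, 95% interval -0.39 to 0.0032), edgeR adjusted p = 0.332. Its partners in the same demethylation, Nsdhl and Hsd17b7, had log2 fold changes of -0.12 and 0.11. The sterol reductase Tm7sf2 was at -0.13, the isomerase Ebp at -0.06, the desaturase Sc5d at 0.0008 and the final reductase Dhcr7 at -0.08. Of 22 alternative settings, 7 gave Msmo1 an unadjusted p under 0.05, sex as a factor and limma voom among them. Mvd and Nsdhl had one in male libraries alone, Mvd also without Cdk7_KO replicate 3, and Mvk without Ctrl replicate 4; none of the 4 passed the adjustment in any of these settings. They were singled out after their values were seen. Over both arms, 7 of the 19 enzymes had positive and 12 negative log2 fold changes, between -0.22 and 0.11 with a median of -0.04, 0 of the 19 had an unadjusted p under 0.05, and the genotypes overlapped for each of them. Within a genotype these enzymes had the same library at the extreme for many members: Ctrl replicate 4 was the lowest Ctrl library for 11 of the 19 and Ctrl replicate 1 the highest for 9, while Cdk7_KO replicate 3 was the highest Cdk7_KO library for 11 and replicate 2 the lowest for 7.

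**Figure D2:**
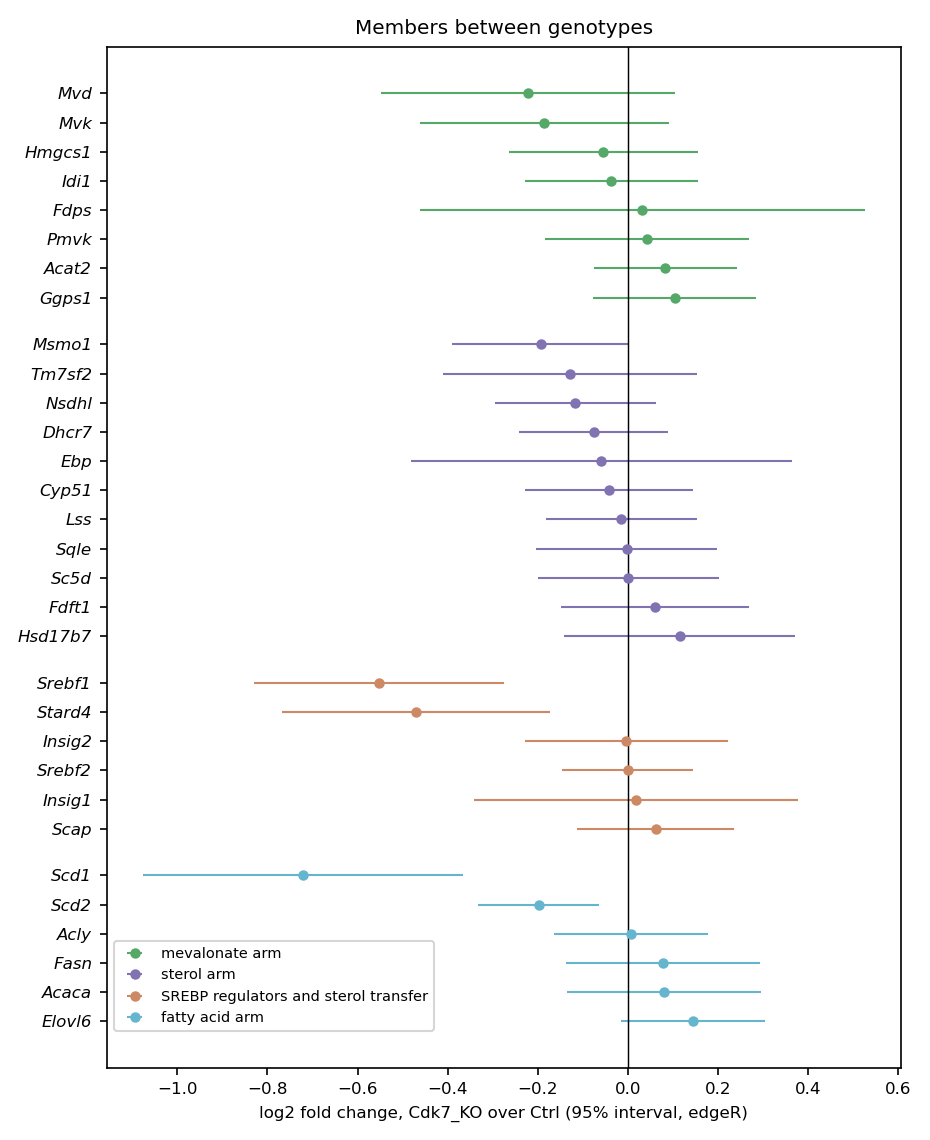
Log2 fold change of each member, Cdk7_KO over Ctrl, with its 95% interval from edgeR (5 libraries per genotype), coloured by role and ordered within a role. The intervals of Srebf1, Stard4, Scd1 and Scd2 lie below 0, and those of the other 27 members include 0.

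The precision differed between members. For the 27 members with an unadjusted p of 0.05 or more, log2 fold changes lay between -0.22 and 0.14 (14 negative, 13 positive), and the 95% interval stayed inside a 1.5-fold change in either direction for 27 of 27 and inside a 1.25-fold change for 19. The 8 with wider intervals were Mvk, Mvd, Fdps, Tm7sf2, Msmo1, Hsd17b7, Ebp and Insig1. An interval that includes 0 does not show that a level was the same in both genotypes.

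The regulators begin with the 2 SREBP genes. Srebf2 (ENSMUSG00000022463; chromosome 15, 82147181 to 82205379, plus strand), which carries a sterol response element core in its printed window, had the highest level per length of its list, 58.0 CPM per kb in Ctrl against 9.22 CPM per kb for Srebf1. Srebf2 was at 404, 377, 389, 410.2 and 427 CPM in Cdk7_KO replicates 1 to 5, and at 436, 415, 378, 419 and 435 CPM in Ctrl replicates 1, 3, 4, 5 and 6. The genotypes overlapped over almost their whole range, with a log2 fold change of -0.001 (SE 0.07, 95% interval -0.15 to 0.14) and an edgeR adjusted p of 0.997.

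Srebf1 (ENSMUSG00000020538; chromosome 11, 60199089 to 60222581, minus strand) was at 42.8, 37.3, 36.3, 25.6 and 29.2 CPM in Cdk7_KO replicates 1 to 5, and at 56.7, 59.7, 51.0, 48.4 and 43.9 CPM in Ctrl replicates 1, 3, 4, 5 and 6. Each Cdk7_KO library lay below each Ctrl library; the closest pair was Cdk7_KO replicate 1 and Ctrl replicate 6. The mean was 34.2 ± 6.86 CPM in Cdk7_KO and 52.0 ± 6.35 CPM in Ctrl (SD, n = 5 each), so that Cdk7_KO held 65.9% of the Ctrl mean. Its log2 fold change came to -0.55 (SE 0.13, 95% interval -0.83 to -0.27), with an adjusted p of 0.161 in edgeR and 0.00900 in DESeq2. Counts are per gene, so the starts of Srebf1 that give its isoforms were not separated.

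SCAP, the escort of both SREBP precursors, comes from Scap, which averaged 132 ± 13.1 CPM in Cdk7_KO and 131 ± 11.9 CPM in Ctrl, a log2 fold change of 0.06 (SE 0.08, 95% interval -0.11 to 0.24). Insig1, itself a known SREBP target whose protein retains SCAP, was at 104, 149, 154, 94.5 and 99.2 CPM in Cdk7_KO replicates 1 to 5, and at 159.8, 141, 107, 104 and 100.1 CPM in Ctrl replicates 1, 3, 4, 5 and 6. The 4 highest values came from male libraries, Cdk7_KO replicates 2 and 3 and Ctrl replicates 1 and 3, while male Cdk7_KO replicate 1 stood among the female libraries. Its log2 fold change was 0.02 (SE 0.17, 95% interval -0.34 to 0.38). Insig2 was at -0.0039 (SE 0.10, 95% interval -0.23 to 0.22).

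Stard4 (ENSMUSG00000024378), a cytosolic protein that moves sterol between membranes and whose gene is known to respond to SREBP2, was the other member of this list with lower values in Cdk7_KO. It was at 23.8, 20.4, 27.0, 17.9 and 21.2 CPM in Cdk7_KO replicates 1 to 5, and at 41.7, 29.0, 31.7, 28.0 and 27.6 CPM in Ctrl replicates 1, 3, 4, 5 and 6. The groups did not overlap, though the highest Cdk7_KO library, replicate 3, was close to the lowest Ctrl library, replicate 6. Stard4 averaged 22.0 ± 3.49 CPM in Cdk7_KO and 31.6 ± 5.87 CPM in Ctrl (SD, n = 5 each), 69.8% of the Ctrl mean, with a log2 fold change of -0.47 (SE 0.14, 95% interval -0.77 to -0.17) and an adjusted p of 0.174 in edgeR and 0.0413 in DESeq2.

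In the fatty acid arm, the 2 members with an unadjusted p under 0.05 in edgeR were the desaturases, which put a double bond into the chain. None of the enzymes that make the chain had one. Their CPM overlapped between the genotypes, as did that of the desaturase Scd1. Acly, which makes cytosolic acetyl-CoA from citrate, had a log2 fold change of 0.0057, and Acaca, which makes malonyl-CoA, 0.08 (SE 0.10, 95% interval -0.14 to 0.30). Fatty acid synthase, Fasn, averaged 1284 ± 87.9 CPM in Cdk7_KO and 1261 ± 161 CPM in Ctrl, a log2 fold change of 0.08 (SE 0.10, 95% interval -0.14 to 0.29). Elovl6, which elongates palmitate, had the highest log2 fold change of the module, 0.14 (SE 0.07, 95% interval -0.01 to 0.30), edgeR adjusted p = 0.373.

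The desaturases Scd1 and Scd2 make monounsaturated fatty acids and are known SREBP1 targets. Scd1 (ENSMUSG00000037071; chromosome 19, 44394455 to 44407879, minus strand) was at 22.4, 17.9, 26.7, 14.3 and 19.0 CPM in Cdk7_KO replicates 1 to 5, and at 29.3, 43.3, 35.7, 37.1 and 26.0 CPM in Ctrl replicates 1, 3, 4, 5 and 6. The groups overlapped only where Cdk7_KO replicate 3 stood just above Ctrl replicate 6. Its mean was 20.1 ± 4.70 CPM in Cdk7_KO and 34.3 ± 6.78 CPM in Ctrl (SD, n = 5 each), 58.6% of the Ctrl mean, and its log2 fold change, the lowest of the module, was -0.72 (SE 0.16, 95% interval -1.08 to -0.37), with an adjusted p of 0.161 in edgeR and 0.00480 in DESeq2.

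Scd2 (ENSMUSG00000025203; chromosome 19, 44293674 to 44306864, plus strand), the neighbouring copy and the main form in the newborn mouse brain, had the highest level per length of all members, 216 CPM per kb in Ctrl against 7.01 CPM per kb for Scd1. It was at 1060.0, 932, 1057, 949.9 and 972 CPM in Cdk7_KO replicates 1 to 5, and at 1217, 1313, 1103, 1149.8 and 1128 CPM in Ctrl replicates 1, 3, 4, 5 and 6. Each Cdk7_KO library lay below each Ctrl library by a narrow margin, which was lost with TMM-scaled CPM, where Cdk7_KO replicate 1 (1072 CPM) stood above Ctrl replicate 4 (1056 CPM). The mean was 994 ± 60.6 CPM in Cdk7_KO and 1182 ± 84.4 CPM in Ctrl (SD, n = 5 each), 84.1% of the Ctrl mean, with a log2 fold change of -0.20 (SE 0.06, 95% interval -0.33 to -0.06), edgeR adjusted p = 0.187 and DESeq2 adjusted p = 0.147. A stretch of 623 bases shared with an Scd1 transcript at 95.5% identity could let some Scd2 reads be counted for the far less abundant Scd1.

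**Figure D3:**
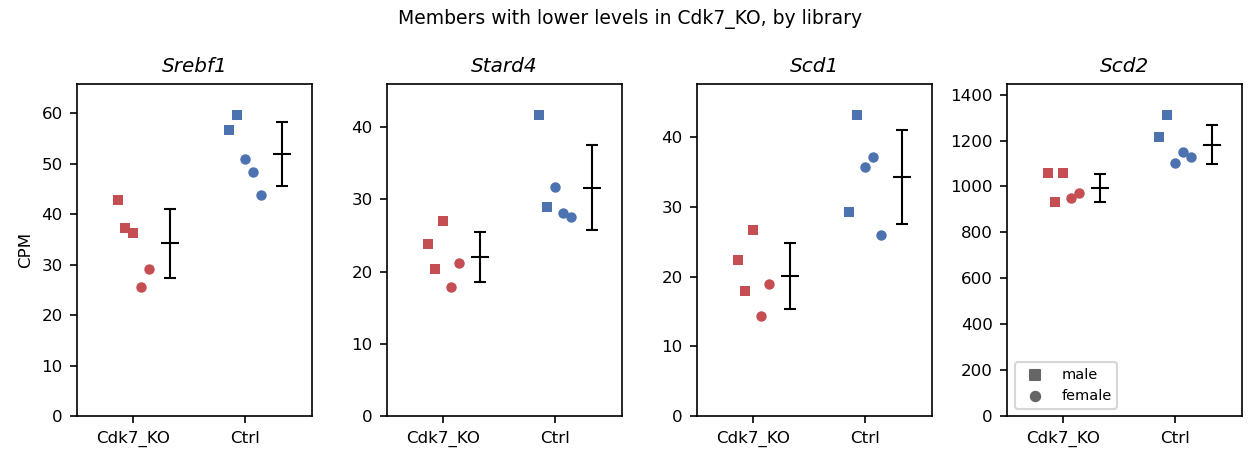
CPM of Srebf1, Stard4, Scd1 and Scd2 in each library (y axes start at 0), Cdk7_KO left of Ctrl, squares male and circles female, with bars for the mean and SD of 5 libraries. In these CPM, not TMM-scaled, the genotypes are separate for Srebf1, Stard4 and Scd2 and touch for Scd1, where Cdk7_KO replicate 3 (26.7 CPM) stands above Ctrl replicate 6 (26.0 CPM).

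Markers of other cell types than projection neurons also had lower mean sums in Cdk7_KO. Whether they followed these 4 members from library to library was not tested. Of the 12 radial glia and astrocyte markers, 12 had negative log2 fold changes with an unadjusted p under 0.05 (median -1.08), and DESeq2 called 3 of them; their summed level in Cdk7_KO was 50.8% of that in Ctrl. The endothelial and mural markers (8 of 8 negative, 8 at an unadjusted p under 0.05) summed to 47.8 to 267 CPM in Cdk7_KO and 187 to 1188 CPM in Ctrl, and the oligodendrocyte markers (8 of 8 negative, 6 at such a p) to 203 to 565 CPM in Cdk7_KO and 333 to 935 CPM in Ctrl. Microglia markers (8 of 8, 4) summed to 52.0 to 162 CPM in Cdk7_KO and 99.5 to 334 CPM in Ctrl. Interneuron markers (8 of 8, 0) summed to 20.9 to 245 CPM in Cdk7_KO and 68.9 to 354 CPM in Ctrl, and erythroid markers (5 of 5, 5) to 34.7 to 89.4 CPM in Cdk7_KO and 82.0 to 199.8 CPM in Ctrl. The 9 projection neuron markers were all positive, 3 of them at an unadjusted p under 0.05. In bulk RNA, fewer cells of a type and less RNA per cell cannot be told apart.

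At the low end of the glial range, Cdk7_KO replicate 4 had the lowest glial sum, 341 CPM, and the lowest Srebf1, Stard4 and Scd1 of all 10 libraries, and Ctrl replicate 6 had the lowest glial sum of its genotype, 1090 CPM, and the lowest Ctrl values of the same 3 genes. At the high end the order was less regular. Ctrl replicate 3, with the highest sum of 2010 CPM, had the highest Srebf1, Scd1 and Scd2 but 29.0 CPM of Stard4, below the 41.7 and 31.7 CPM of Ctrl replicates 1 and 4, and Cdk7_KO replicate 3, with the highest sum of its genotype, had less Srebf1 than Cdk7_KO replicates 1 and 2. Where glial sums met, at 1154 and 1206 CPM in Cdk7_KO replicates 1 and 3 and 1090 CPM in Ctrl replicate 6, Srebf1 was 42.8 and 36.3 CPM in Cdk7_KO against 43.9 CPM in Ctrl. Scd1 was 22.4 and 26.7 CPM in these Cdk7_KO libraries against 26.0 CPM in Ctrl replicate 6. Stard4 was 23.8 and 27.0 CPM in these Cdk7_KO libraries against 27.6 CPM in Ctrl replicate 6, and Scd2 was 1060.0 and 1057 CPM in Cdk7_KO against 1128 CPM in Ctrl.

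A fit with the mean log2 level of the 12 glial markers as a covariate gave log2 fold changes, Cdk7_KO over Ctrl, of -0.21 for Srebf1 (95% interval -0.48 to 0.05), -0.25 for Stard4 (-0.63 to 0.14), -0.31 for Scd1 (-0.67 to 0.05) and -0.15 for Scd2 (-0.34 to 0.03). Each interval then included 0, and 0 of the 31 members had an unadjusted p under 0.05 in edgeR, which called 0 genes after adjustment in that fit (202 lower and 252 higher at an unadjusted p under 0.05). That score ran over 3.79 to 5.91 in Cdk7_KO and 5.81 to 6.65 in Ctrl, so the genotypes shared almost none of its range. The parts of genotype and of glial RNA in the lower Srebf1, Stard4, Scd1 and Scd2 values cannot be told apart in these libraries. Other marker sums in Cdk7_KO were also below the Ctrl mean: endothelial and mural at 31.5% of it, erythroid 40.3%, interneuron 53.1%, microglia 54.5% and oligodendrocyte 55.8%. The parts of these cell types were not tested.

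**Figure D4:**
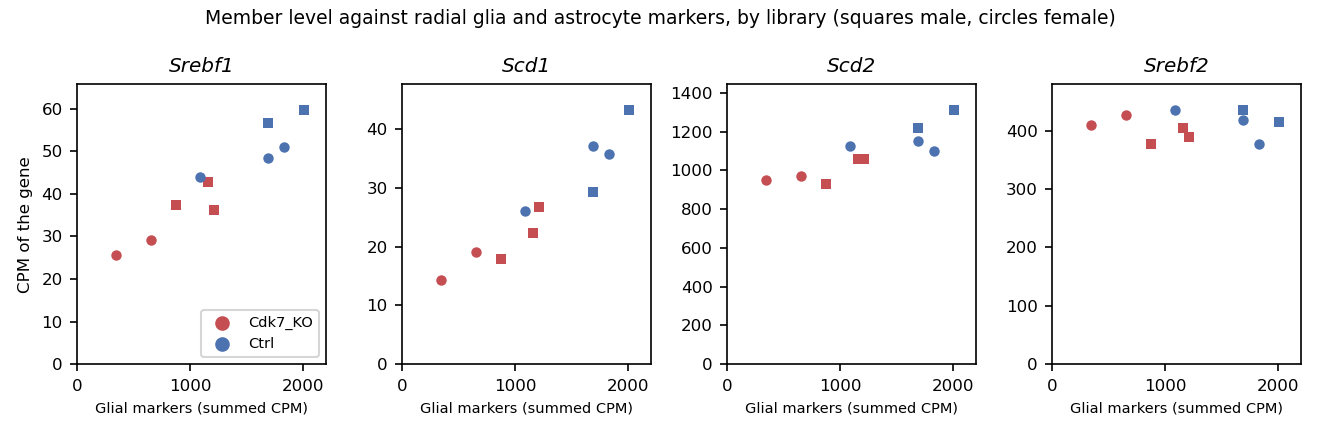
CPM of Srebf1, Scd1, Scd2 and Srebf2 (y axes from 0) against the summed CPM of 12 radial glia and astrocyte markers (x axes), 1 point per library, Cdk7_KO red and Ctrl blue, squares male and circles female. Glial sums run over 341 to 1206 CPM in Cdk7_KO and 1090 to 2010 CPM in Ctrl; Srebf1 and Scd1 are low in the libraries with low sums, and Srebf2 is at 377 to 427 CPM in Cdk7_KO and 378 to 436 CPM in Ctrl.

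Within each sex, Srebf1, Stard4 and Scd1 had negative log2 fold changes. Their CPM separated or nearly separated over all 10 libraries, so these signs were all but fixed and are no separate check. The log2 fold change of Srebf1 was -0.57 in male libraries (3 Cdk7_KO, 2 Ctrl) and -0.71 in female libraries (2 Cdk7_KO, 3 Ctrl), and that of Stard4 was -0.56 in male and -0.48 in female libraries. For Scd1 it was -0.69 in male and -0.88 in female libraries, and for Scd2 -0.30 in male and -0.13 in female libraries. With sex as a factor, edgeR called 3 of 31 members: Srebf1 at -0.64 (edgeR adjusted p = 0.00828), Stard4 at -0.52 (0.0314) and Scd1 at -0.78 (0.0172). In that fit, 732 of 15578 tested genes were called, 686 lower and 46 higher. DESeq2 had called the same 3 members from the same counts, so the 2 results are not independent. Over all 31 members, 18 had opposite signs, 10 were negative in both and 3 positive in both. The median log2 fold change was -0.14 in male libraries, where 26 of 31 were negative, and 0.03 in female libraries, where 12 were negative. Over all tested genes the median was 0.016 in male and -0.015 in female libraries. The sign counts were not made over all genes, and members measured in the same few libraries are not independent.

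The difference between the sexes was tested with an interaction term in edgeR, which called 0 of 15578 genes after adjustment. It gave an unadjusted p under 0.05 for 1143 of the 15578 genes and for 3 of the 31 members, Fasn, Fdft1 and Sqle. The members' share was near that of all genes, so the values of these 3 are descriptions. Fasn was at 1189, 1217 and 1265 CPM in male Cdk7_KO against 1373 and 1380.2 CPM in male Ctrl libraries, and at 1396 and 1350.5 CPM in female Cdk7_KO against 1004, 1199.8 and 1346 CPM in female Ctrl libraries. Its log2 fold change was -0.16 in males and 0.31 in females, with an interaction adjusted p of 0.665 in edgeR. For Fdft1 the log2 fold change was -0.16 in males and 0.27 in females and for Sqle -0.20 in males and 0.20 in females, with the same adjusted p of 0.665 in edgeR.

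**Figure D5:**
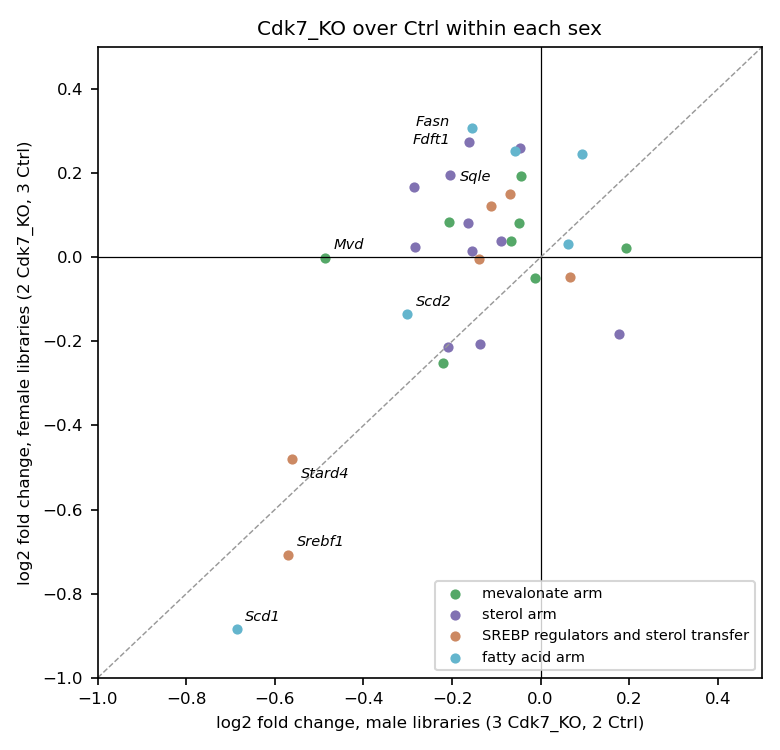
Log2 fold change of each member, Cdk7_KO over Ctrl, in male libraries (x axis, 3 Cdk7_KO and 2 Ctrl) and in female libraries (y axis, 2 Cdk7_KO and 3 Ctrl), coloured by role, with the line of equal values dashed. Srebf1, Stard4 and Scd1 lie far below 0 on both axes, and 18 members have opposite signs.

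Other genes of the pathway were read from the same fit. Of 64 genes listed, 63 were in the table and 62 were tested: 27 log2 fold changes were positive and 35 negative (median -0.03), 7 were lower (11.3%) and 0 higher at an unadjusted p under 0.05 in edgeR, which called 0 of them, and DESeq2 called 2 (3.23%), both lower. Against 10.5% of all tested genes lower in edgeR and 3.30% in DESeq2, these shares were near the background, and the genes named from the lists are descriptions. Among 6 tested genes listed as other sterol synthesis genes, 1 had an unadjusted p under 0.05: Soat1, which esterifies cholesterol for storage, at -0.66 (SE 0.23, 95% interval -1.16 to -0.15), edgeR adjusted p = 0.211. None of 8 tested genes of SREBP processing and sterol sensing (median -0.03) or of 9 genes of prenyl side branches (median 0.06) had one.

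Sterol uptake and transport held 12 tested genes, 8 with positive and 4 with negative log2 fold changes, and 1 had an unadjusted p under 0.05. This gene, Npc1, which exports cholesterol from lysosomes, averaged 38.9 ± 4.18 CPM in Cdk7_KO and 51.0 ± 5.09 CPM in Ctrl without overlap, a log2 fold change of -0.34 (SE 0.08, 95% interval -0.52 to -0.16), adjusted p = 0.161 in edgeR and 0.0194 in DESeq2. Of 27 other fatty acid synthesis genes, 8 were positive and 19 negative, and 5 had an unadjusted p under 0.05. The 3 with the smallest p were Elovl1, an elongase of very long chains, Mid1ip1, an activator of acetyl-CoA carboxylase, and Elovl5, an elongase of polyunsaturated chains. Elovl1 averaged 4.20 ± 1.22 CPM in Cdk7_KO and 7.63 ± 1.40 CPM in Ctrl without overlap, a log2 fold change of -0.81 (SE 0.22, 95% interval -1.29 to -0.33), adjusted p = 0.167 in edgeR and 0.0193 in DESeq2, while Mid1ip1 was at -0.38 and Elovl5 at -0.23. With sex as a factor, edgeR called Npc1 (adjusted p = 0.0416) and Elovl1 (edgeR adjusted p = 0.0395), among 732 of 15578 tested genes. With the glial score as a covariate, the log2 fold change was -0.07 for Soat1, -0.17 for Npc1, -0.40 for Elovl1, -0.09 for Mid1ip1 and -0.15 for Elovl5, and each 95% interval included 0.

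In levels per length, Scd2 at 216, Hmgcs1 at 153 and Fasn at 115 CPM per kb led the module in Ctrl, followed by Acat2 at 75.8. Srebf2 at 58.0 and Acly at 56.0 did not differ beyond their spread, and neither did Cyp51 at 40.0, Sqle at 39.8 and Insig1 at 39.6. Ebp at 3.14 and Fdps at 1.43 CPM per kb were lowest. These levels divide CPM by all annotated exon bases of a gene, so genes with long, little-used exons read low. Summed over the 31 members, the level was 5418 to 5957 CPM in Cdk7_KO and 5341 to 6460 CPM in Ctrl.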

How the data were processed

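The authors deposited raw counts, 1 whole number per gene and library, for the 10 libraries. The submitters' processing notes name STAR, Salmon and GRCm38; versions, annotation and strand setting were not given in the sources used here. According to the labels, polyA RNA was made into libraries with a directional kit. Of 55573 gene IDs, 28204 had at least 1 count, and 55480 matched GENCODE M21, which gave coordinates and exon lengths. For 117 symbols shared by several IDs, the most highly counted ID was taken. Every pair of libraries differed well beyond sampling noise (lowest chi-square per gene 11.2), so all 10 were kept apart.

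The test was that of edgeR 4.0.16 in R 4.3.3 (filterByExpr by group with a minimum count of 10, TMM factors, glmQLFit and glmQLFTest, genotype alone in the model), with p-values adjusted by Benjamini-Hochberg over 15578 genes and called under 0.05. Log2 fold changes are Cdk7_KO over Ctrl; CPM values use library totals. DESeq2 1.42.0 gave 16263 adjusted p-values and left 11941 missing, which were not counted. Cdk7 was also compared as log2(CPM + 1) by a two-sided exact permutation test. The glial score is the mean log2 CPM of 12 markers (TMM-scaled, prior count 2). Near copies were searched among annotated transcripts.

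Values in every library are given for members with an unadjusted p under 0.05 or with groups that do not overlap, for the member with the highest level per exon length of each role list (for the fatty acid arm, Scd2), and, chosen after their values were seen, for Fasn and Insig1. Of the other pathway lists, at most 3 genes a list with an unadjusted p under 0.05 are named; some genes of the pathway are not reported here. The members and lists were chosen with earlier results of these data known. Alternatives were RLE size factors, library totals in place of TMM, no filter, a minimum mean of 1 CPM, robust estimation, the replicate number as a block, sex as a factor, the glial score as a covariate, each sex alone, DESeq2, limma 3.58.1 (voom) and leaving out each library. The interaction of sex and genotype was added once the data had been seen. Before that, edgeR, DESeq2 and limma voom were run on simulated counts with known changes. The simulation gave the libraries no differences of sex or cell type, and its results are not reported here.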

Additional observations from a re-analysis of the deposited data

Results flagged for a closer look

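Fasn, fatty acid synthase, was flagged because its genotypes separated in opposite directions in the sexes. Separation in either direction was common, at 27.4% of all tested genes in male and 37.5% in female libraries. The share of all genes that separated in opposite directions was not counted. The log2 fold change, Cdk7_KO over Ctrl, was -0.16 in male libraries and 0.31 in female libraries, an interaction (male minus female) of -0.45 with an edgeR adjusted p of 0.665 over 15578 genes. All 3 male Cdk7_KO libraries lay below both male Ctrl libraries, and both female Cdk7_KO libraries lay above all 3 female Ctrl libraries. Male libraries have the lower replicate numbers, so sex cannot be told apart from whatever else those numbers mark. Of 64 groups of 5 libraries searched for a single library far from the rest, 0 were marked, where chance marks about 1 in 20.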

How the results depend on the processing

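Over 22 alternatives, Srebf1, Stard4, Scd1 and Scd2 kept negative log2 fold changes, over -0.71 to -0.21, -0.56 to -0.25, -0.88 to -0.31 and -0.30 to -0.13 (edgeR and DESeq2 adjusted p over 0.00828 to 1.00, 0.0314 to 1.00, 0.00480 to 1.00 and 0.0559 to 1.00). Genes called numbered 1 with no filter, 732 with sex as a factor (686 lower, 46 higher), 578 by DESeq2 and 0 to 5 when each library was left out, the 5 without Cdk7_KO replicate 1. Members called numbered 3 of 31 with sex as a factor, beside 732 of 15578 tested genes. By DESeq2 they numbered 3 of 31 (9.68%), all lower, against 3.30% of 16263 genes lower. Members lower at an unadjusted p under 0.05 in edgeR numbered 0 with the glial score (1.30% of all genes), 7 in male libraries (8.19%) and 3 in female libraries (12.3%). They numbered 4 to 6 with a library left out (8.27% to 11.3%), and 5 with library totals (12.2%), a mean of at least 1 CPM (11.6%) and sex as a factor (13.1%). By limma voom's own test, 5 members were lower at such a p (10.3% of all genes). Members higher numbered 1 with sex as a factor (Elovl6, against 6.98% of all genes) and 2 in female libraries (Elovl6 and Fasn, against 6.92%). With a library left out they numbered 0 to 1, against 1.98% to 5.69% of all genes. Members without overlap numbered 13 in male libraries (41.9%, against 27.4% of all genes) and 11 in female libraries (35.5%, against 37.5%). They numbered 2 with TMM-scaled CPM (Srebf1 and Stard4, 6.45%, against 3.32%). With a library left out they numbered 3 to 5, the 5 without Cdk7_KO replicate 3 (16.1%, against 6.0%). For the other libraries left out, the share of all genes without overlap was not counted. The members' median was -0.14 in male libraries (0.016 over all tested genes) and -0.05 to 0.0084 with a library left out. Cdk7 passed the threshold in edgeR with no filter (-1.54, edgeR adjusted p = 0.0393), with sex as a factor (-1.43, 0.00828) and without Cdk7_KO replicate 1 (-1.68, 0.0391), and by DESeq2 (-1.54); it stood at -1.68 to -1.44 with a library left out. Signs turned for Hmgcs1 (0.083 in female libraries, -0.13 to 0.00051 with a library left out), Fdft1 (-0.052 with the glial score, -0.16 in male libraries, -0.016 to 0.11 with a library left out), Srebf2 (0.0017 with no filter, 0.0066 with sex as a factor, 0.12 in female libraries, -0.040 to 0.026 with a library left out), Fasn (-0.089 with the glial score, -0.16 in male libraries) and Elovl6 (-0.023 with the glial score). Signs turned for many other members too, such as Sqle (-0.20 to 0.20 over the alternatives), Sc5d (-0.18 to 0.18) and Insig1 (-0.14 to 0.32). The causes were not tested.

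For replicate numbers 1, 3, 4 and 5, shared by both genotypes, deviations from the group means correlated at -0.10, 0.31, 0.14 and 0.17. Of the 4 numbers, 0 had its own partner as best match. For Cdk7_KO replicates 3, 4 and 5 the best match was a Ctrl library of the same sex (replicates 1, 6 and 6). With 4 numbers, these values cannot show whether the libraries were paired. With the replicate number as a block, edgeR called 5 genes and 0 members, Hmgcs1 stood at 0.020 and Srebf2 at 0.053. Counting error weighs most on Fdps, Ebp and the other weakly counted members.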
